A study of Branchiostoma lanceolatum with 8 samples.

Results

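Fibroblast growth factor (FGF) receptors are membrane tyrosine kinases that bind FGF ligands together with heparan sulfate and pass the signal through adaptors to RAS and the ERK kinases. Sprouty proteins are induced by this signal in many animals and restrain it. In chordate embryos FGF signalling takes part in neural induction, in mesoderm formation and in somite development. The genes described here are all rows whose gene name is exactly FGFR1, FGFR3 or SPRY2 in the authors' comparisons of Activin-treated with control explants. They came to 7 gene identifiers of 18998 in all. FGFR1 had 3 identifiers (BL04828, BL15501 and BL21020), FGFR3 had 3 (BL01887, BL06450 and BL14111), and SPRY2 had 1 (BL12625). Of the 7, 5 were tested at 19 hours post fertilization (hpf), 6 at 11 hpf and 4 at both times. The symbols are human-style names that the tables pair with amphioxus identifiers, and which identifier encodes which amphioxus receptor was not tested.

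RNA was sequenced from explants of the ectoderm, the outer layer of the embryo, of *Branchiostoma lanceolatum*, an amphioxus and so a chordate without a backbone. Explants exposed to 50 ng/mL human recombinant Activin, a TGF-beta family ligand, were set against control explants at 19 and at 11 hpf. Each of the 4 groups held 2 libraries, and each library mixed explants from different fertilizations. No strain, genotype or explant number is given in the labels, and nothing ties a replicate number to 1 fertilization across groups.

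Values per library were not used here, because the authors' tables hold 1 mean, 1 log2 fold change, its standard error and p-values per gene. The spread between the 2 libraries of a group is therefore seen only through the authors' standard error, and overlap between single libraries cannot be shown. Depth per library is unknown. Group means were rebuilt from the authors' mean and fold change and are given in normalized counts. Both times were normalized separately, so a level at 19 hpf set beside one at 11 hpf is a description with no test. Each fold change is on the log2 scale, Activin over control, ± the authors' standard error, with 2 libraries per group. No header says which treatment is on top, and the sign was set by LEFTY2, CHRD and GSC, which Nodal-type signals induce in other chordates and which had positive values at 19 and 11 hpf. A gene was called where the authors' Benjamini-Hochberg adjusted p was below 0.05. In bulk explants, fewer cells of a type and less RNA per cell cannot be told apart.

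Markers of the labelled tissue were read first. Of 16 epidermal and non-neural ectoderm symbols 7 had rows, with summed rebuilt means of 40666 normalized counts in Activin and 780769 in control explants at 19 hpf, and of 17500 and 356720 at 11 hpf. KRT8 (BL15060), a keratin, held most of these sums. Its fold change had a standard error of 1.52 at 19 hpf against 0.37 at 11 hpf, so its 19 hpf means are less certain. The other 10 identifiers summed to 9554 in Activin and 40789 in control explants at 19 hpf, and the other 9 to 13085 and 99432 at 11 hpf. Of 11 identifiers 8 fell and 2 rose at 19 hpf, where 27.7% of all genes fell and 18.7% rose. Of 10 identifiers 8 fell and 2 rose at 11 hpf, where 24.6% of all genes fell and 12.0% rose. Of the other lists 9 of 14 neural, 10 of 19 mesoderm and 8 of 12 endoderm symbols had rows at 19 hpf. Neural markers summed to 63217 in Activin and 15874 in control explants at 19 hpf, with 8 of 11 higher and 2 lower, and to 54830 and 14290 at 11 hpf, with 7 of 10 higher and 1 lower. Without SOX2 (BL16399), their identifier of highest mean over both treatments, the sums were 54675 in Activin and 8254 in control explants at 19 hpf, and 41601 and 6759 at 11 hpf. The other SOX2 identifiers stayed in these sums. So did ELAVL4, which was more abundant than BL16399 in Activin explants at 19 hpf (13956 against 8542). Mesoderm markers summed to 7433 in Activin and 977 in control explants at 19 hpf, with 7 of 13 higher, and to 2651 and 951 at 11 hpf, with 3 of 11 higher. Without SNAI2 they were 4178 in Activin and 846 in control explants at 19 hpf, and 1353 and 889.6 at 11 hpf. Endoderm markers summed to 3423 in Activin and 4328 in control explants at 19 hpf, with 4 of 8 higher and 1 lower, and to 824 and 352 at 11 hpf, with 2 of 6 higher and 1 lower. The order at 19 hpf was set by GATA4 (BL08554), without which the other 7 summed to 3028 in Activin and 946 in control explants. A mean rebuilt from a fold change cannot be 0, so it does not show that a marker was detected in both treatments. The marker shifts were read from the same libraries as the receptor and SPRY2 values below, and their part in those values was not tested.

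FGFR3 (BL14111) carried the largest change among the 4 identifiers tested at both times. Its rebuilt mean was 19.0 normalized counts in Activin explants and 901 in control explants at 19 hpf. At 11 hpf it was 8.90 in Activin and 515 in control explants. The receptor transcript was low in Activin explants and abundant in control explants at both ages. The authors' deposited table gave -5.57 ± 0.46 at 19 hpf, a 47.4-fold lower level with a 95% interval of 25.5 to 87.9 (adjusted p = 1.1e-32 from the authors' fit). At 11 hpf the authors' deposited table gave -5.85 ± 0.52, 57.9-fold lower with an interval of 28.4 to 118 (adjusted p = 1.8e-27 from the authors' fit). At 19 hpf 579 of 16733 genes had a lower fold change, and at 11 hpf 379 of 15793. The fall differed between times by 0.29 ± 0.69 (19 minus 11 hpf), with a 95% interval of -1.07 to 1.65, which leaves room for a difference of either sign (Wald test, Benjamini-Hochberg adjusted p = 0.84 over all genes).

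The 2 well-measured FGFR1 identifiers, with means above 100 normalized counts, fell at 11 hpf and lay nearer to the control level at 19 hpf. FGFR1 (BL15501) had a rebuilt mean of 462 normalized counts in Activin and 836 in control explants at 19 hpf, and of 332 and 3261 at 11 hpf. FGFR1 (BL04828) had 129.9 in Activin and 226 in control explants at 19 hpf, and 111 and 998 at 11 hpf. In both, the control level at 11 hpf stood apart from the other 3 groups. The authors' deposited table gave BL15501 -0.86 ± 0.37 at 19 hpf (1.81-fold lower, 95% interval 1.10 to 2.98, adjusted p = 0.044 from the authors' fit), against -3.30 ± 0.36 at 11 hpf (9.82-fold lower, interval 6.05 to 15.95, adjusted p = 5.5e-19). For BL04828 the authors' deposited table gave -0.80 ± 0.49 at 19 hpf, which was not called (adjusted p = 0.17 from the authors' fit). At 11 hpf the authors' deposited table gave it -3.17 ± 0.39, 8.97-fold lower with an interval of 5.27 to 15.3 (adjusted p = 9.1e-15). The 19 hpf values depended on the scaling: under total-count scaling BL15501 became 0.0018 and BL04828 became 0.06, and BL15501 was called under 3 of 6 scalings, the deposited one included.

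**Figure D1:**
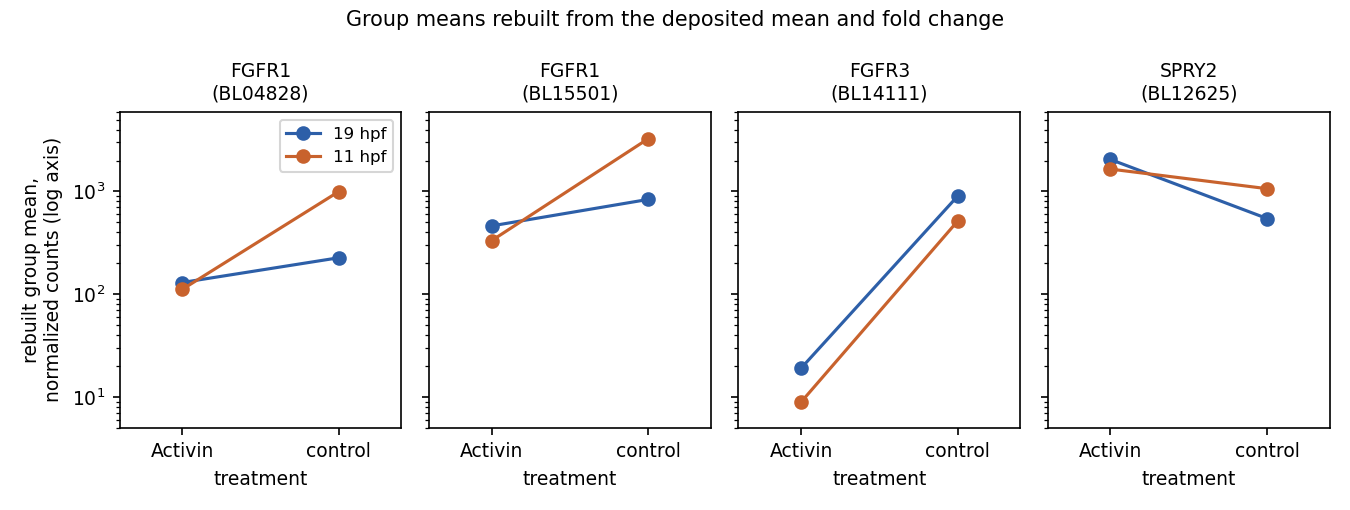
Rebuilt group means in normalized counts (log axis) of the 4 identifiers tested at both times, with Activin left and control right, 19 hpf in blue and 11 hpf in orange. Points are single rebuilt means with no replicate error. Both FGFR1 identifiers lie near the same level in Activin explants at both times, while their control mean is lower at 19 hpf (836 and 226) than at 11 hpf (3261 and 998).

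The FGFR1 effect differed between times. The difference of log2 fold changes, 19 minus 11 hpf, was 2.44 ± 0.51 for BL15501, with a 95% interval of 1.44 to 3.44 (Wald test, Benjamini-Hochberg adjusted p = 6.1e-05 over 13528 genes). It was 2.36 ± 0.63 for BL04828, with an interval of 1.14 to 3.59 (Wald test, adjusted p = 0.0023). Of the 4 identifiers tested for this difference 2 passed, both positive, where 16.8% of all genes passed, 10.1% with a positive and 6.70% with a negative difference. Both passed under all 6 scalings, at 1.76 to 2.54 for BL15501 and at 1.68 to 2.47 for BL04828. The rebuilt control mean was 3.90-fold lower at 19 hpf than at 11 hpf for BL15501 and 4.41-fold lower for BL04828. The rebuilt Activin mean was 1.39-fold higher at 19 hpf for BL15501 and 1.17-fold higher for BL04828. As a share of each group's summed rebuilt means, in counts per 1000000, BL15501 stood at 59.6 in Activin and 59.6 in control explants at 19 hpf, and at 53.8 and 269 at 11 hpf. BL04828 stood at 16.8 in Activin and 16.1 in control explants at 19 hpf, and at 18.0 and 82.3 at 11 hpf. Its Activin level was therefore not higher at 19 hpf on this scale. On both scales control explants at 11 hpf led the order of the 4 groups. In normalized counts control explants at 19 hpf came next, then Activin explants at 19 hpf and Activin explants at 11 hpf, and only steps within a time were tested.

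SPRY2 (BL12625), the Sprouty member, rose at 19 hpf. Its rebuilt mean was 2047 normalized counts in Activin and 545 in control explants at 19 hpf, and 1651 and 1064 at 11 hpf. In normalized counts the order ran from Activin explants at 19 hpf through Activin and control explants at 11 hpf to control explants at 19 hpf. Activin and control explants at 11 hpf did not differ past the threshold. The authors' deposited table gave 1.91 ± 0.34 at 19 hpf, 3.75-fold higher with a 95% interval of 2.36 to 5.97 (adjusted p = 1.4e-07 from the authors' fit). At 11 hpf the authors' deposited table gave 0.63 ± 0.35, with an interval of -0.06 to 1.33, and SPRY2 was not called (adjusted p = 0.15). A call at 11 hpf needed a fold of 1.78 at this standard error, and the value was 1.55. SPRY2 was called higher at 19 hpf under all 6 scalings, at 0.86 to 2.77. At 11 hpf it stood at 0.27 to 1.61 and was called under 3 of them. The difference between times was 1.27 ± 0.49, with a 95% interval of 0.31 to 2.24, and lay just outside the threshold (Wald test, Benjamini-Hochberg adjusted p = 0.054 over all genes). Control SPRY2 was 1.95-fold lower at 19 hpf than at 11 hpf on the rebuilt means, and Activin SPRY2 was 1.24-fold higher. On the share scale used above for FGFR1, SPRY2 stood at 264 in Activin and 38.8 in control explants at 19 hpf. At 11 hpf it stood at 268 in Activin and 87.7 in control explants. The SPRY2 level in Activin explants was therefore not higher at 19 hpf on the share scale, where Activin explants at 11 hpf led the order. Control SPRY2 was lower at 19 hpf on both scales.

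**Figure D2:**
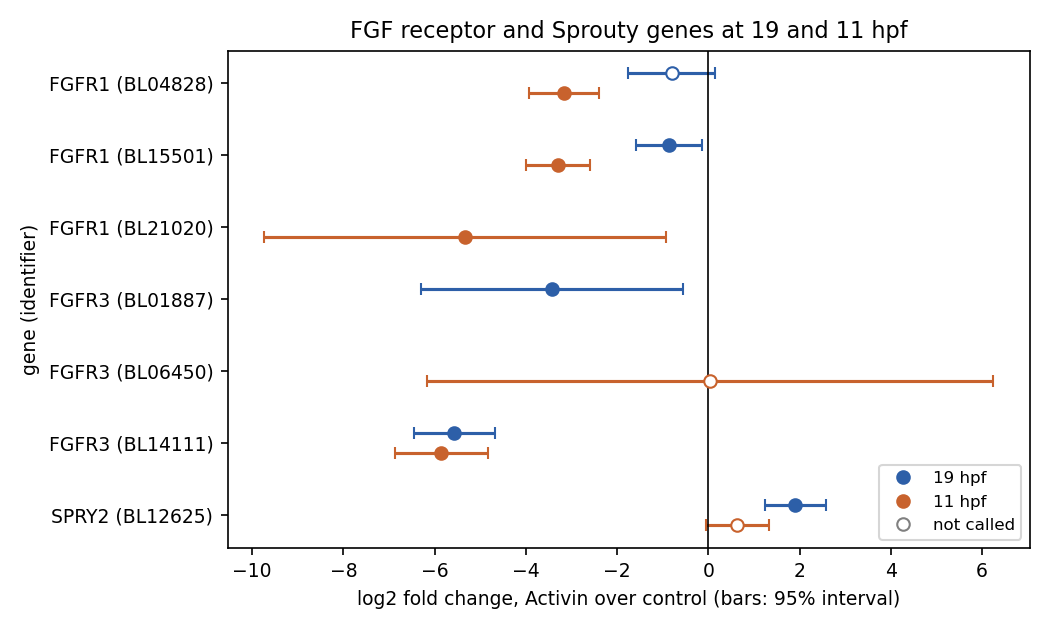
Log2 fold change of Activin over control for each identifier, with its 95% interval, 19 hpf in blue above 11 hpf in orange, and filled points called at an adjusted p below 0.05. FGFR3 (BL14111) lies below -5 at both times, both well-measured FGFR1 identifiers lie near -3 at 11 hpf and above -1 at 19 hpf, and SPRY2 lies right of 0. The 3 sparse identifiers have wide intervals.

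The other 3 identifiers were sparse. FGFR1 (BL21020), tested at 11 hpf, had a rebuilt mean of 0.33 normalized counts in Activin and 13.1 in control explants, and the authors' deposited table gave -5.33 ± 2.25 (adjusted p = 0.049 from the authors' fit). FGFR3 (BL01887), tested at 19 hpf, had 2.64 in Activin and 28.4 in control explants, and the authors' deposited table gave -3.42 ± 1.47 (adjusted p = 0.043). Both were called lower, but their Activin means lay under 3 normalized counts, so no fold is read from them. Each was called under 3 of 6 scalings, and over all 6 the adjusted p ran from 0.033 to 0.097 for BL21020 and from 0.0058 to 0.13 for BL01887 (normal test on the authors' errors). FGFR3 (BL06450), tested at 11 hpf, had 3.05 in Activin and 2.98 in control explants, and the authors' deposited table gave 0.04 ± 3.17 (adjusted p = 0.99). A call on it would have needed a fold of 179, so smaller differences could not be called at so low a count. The first and second of these calls and that of BL15501 at 19 hpf were the members just inside the threshold, and SPRY2 at 11 hpf was the nearest outside it.

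Counted together, 4 of 5 identifiers were called at 19 hpf, 3 lower and 1 higher, where 46.4% of all genes were called, 27.7% lower and 18.7% higher. At 11 hpf 4 of 6 were called, all lower, where 36.6% of all genes were called, 24.6% lower and 12.0% higher. The median fold change of the identifiers was -0.86 at 19 hpf and -3.23 at 11 hpf, where that of all genes was 0.07 at both times. One identifier at 19 hpf and 2 at 11 hpf had a mean under 20 normalized counts. With an adjusted p below 0.01, 1 identifier remained lower and 1 higher at 19 hpf, and 3 remained lower at 11 hpf.

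Identifiers of 1 name were compared with each other. BL15501 and BL04828, both named FGFR1, differed in their log2 fold change by 0.06 at 19 hpf and by 0.13 at 11 hpf. Among gene names with 2 or more identifiers of mean 20 or above, the median range of the fold changes was 1.92 in 1139 names at 19 hpf and 1.51 in 956 names at 11 hpf. The range was under 0.2 in 11.1% of these names at 19 hpf and in 14.2% at 11 hpf. Exactly 2 identifiers were held by 727 of the names at 19 hpf and by 650 at 11 hpf. The other names had more, and a range tends to widen with more identifiers, so it is not strictly like the difference of 1 pair. Names whose identifiers were called in opposite directions made up 14.4% at 19 hpf and 10.8% at 11 hpf. Of the FGFR3 identifiers, BL01887 and BL14111 lay 2.14 apart at 19 hpf, and BL06450 and BL14111 lay 5.89 apart at 11 hpf. Both pairs had overlapping 95% intervals. The sparse BL01887 and BL06450 had standard errors of 1.47 and 3.17, too wide for the overlap to show agreement. Reads that map to near-identical copies could be split among them, and how the authors counted such reads is not given in the sources used here.

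**Figure D3:**
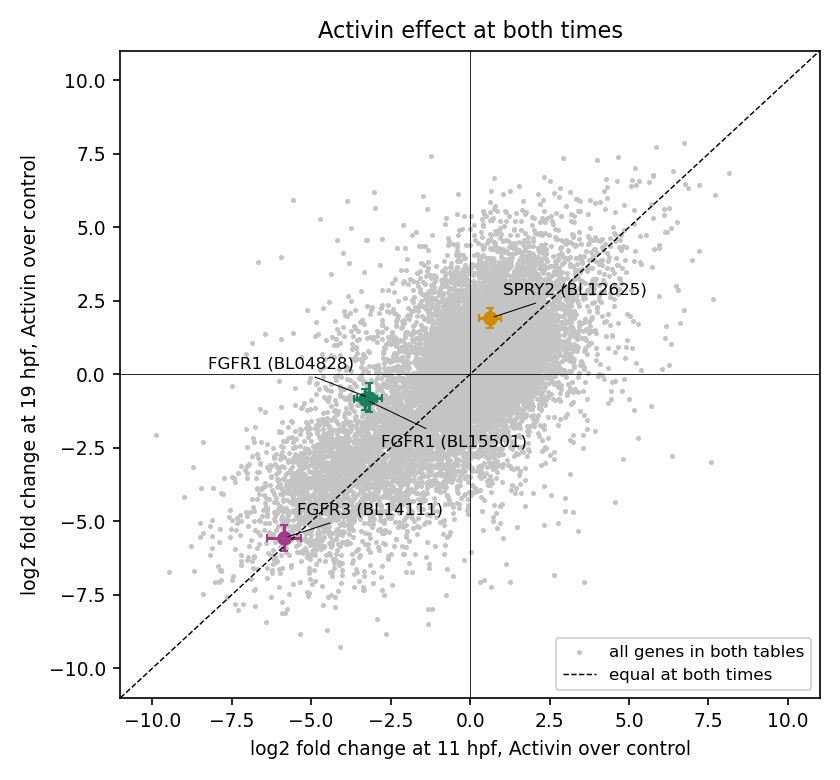
Log2 fold change of Activin over control at 11 hpf (x axis) and 19 hpf (y axis) for all 13528 genes in both tables (grey), with the 4 identifiers tested at both times in colour and bars of 1 standard error. FGFR3 (BL14111) lies on the line of equal effects, and both FGFR1 identifiers lie together above it, as does SPRY2, whose difference missed the threshold.

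Genes with the most similar pair of fold changes were found by Euclidean distance over the 2 times, among 7941 named identifiers of mean 20 or above. For FGFR1 (BL04828) they were SLC6A5 at a distance of 0.05, a glycine transporter gene, MFSD5 at 0.09 and the other FGFR1 identifier, BL15501, at 0.14. For BL15501 they were GEMIN7 at 0.08, SLC6A5 at 0.10 and PASK at 0.14. For FGFR3 (BL14111) they were ACPP at 0.13, TEPP at 0.18 and NXN at 0.22, and for SPRY2 they were TOMM22 at 0.04, AUP1 at 0.07 and DPH2 at 0.07. Within a distance of 0.5 there were 262 genes for SPRY2, 37 for BL04828, 30 for BL15501 and 15 for FGFR3. Each gene named here had standard errors larger than its distance. They were 1.05 at 11 hpf and 0.97 at 19 hpf for DPH2, and 0.35 and 0.37 for SLC6A5. The order among close genes is therefore not settled.

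Of 23 FGF ligand symbols, FGF17 and FGF20 had rows, with 4 identifiers at 19 hpf and 3 at 11 hpf. FGF17 (BL22753), a secreted FGF of the FGF8 group, had a rebuilt mean of 181 normalized counts in Activin and 24.4 in control explants at 19 hpf, 2.88 ± 0.65 in the authors' deposited table (adjusted p = 3.7e-05 from the authors' fit). FGF20 (BL79782) had 75.8 in Activin and 1.75 in control explants, and FGF20 (BL14039) had 23.4 and 0.91. Both were called higher, with control means under 3 counts. The third FGF20 identifier, BL20061, had 17.4 in Activin and 19.1 in control explants and was not called. Of the 4 ligand identifiers 3 therefore rose and 0 fell at 19 hpf, where 18.7% of all genes rose, and on ribosomal centring 2 rose. At 11 hpf 0 of 3 were called at the deposited scaling, at 1.55 ± 0.70 for FGF17, 3.71 ± 1.74 for FGF20 (BL79782) and 3.93 ± 2.46 for FGF20 (BL14039) in the authors' deposited table. Under upper-quartile and total-count scaling 2 of the 3 were called higher at 11 hpf.

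Other receptors and coreceptors, of which 7 of 22 symbols had rows at 19 hpf and 6 at 11 hpf, were called in both directions at 11 hpf. FGFR2 (BL01899) had a rebuilt mean of 7.61 normalized counts in Activin and 25.0 in control explants at 19 hpf, not called, against 10.4 and 295 at 11 hpf, where it fell by 4.82 on the log2 scale. A second FGFR2 identifier, BL02048, had 222 in Activin and 104 in control explants at 19 hpf, and 70.8 and 54.3 at 11 hpf, called at neither time. FGFRL1 (BL06431), an FGF-binding receptor that lacks the kinase, had 9565 in Activin and 8454 in control explants at 19 hpf, not called, and 819 and 4523 at 11 hpf, where it fell by 2.47. The difference between times of FGFRL1 was 2.64, of the same sign as that of FGFR1 (Wald test, Benjamini-Hochberg adjusted p = 2.1e-06 over all genes). FLRT1, a membrane protein of a family that binds FGF receptors, rose by 1.41 ± 0.35 at 19 hpf and by 1.80 ± 0.38 at 11 hpf in the authors' deposited table. GPC5, a glypican, rose at 19 hpf (1.02 ± 0.32), and SDC1, a syndecan, fell at 11 hpf (-1.16 ± 0.34), both in the authors' deposited table. In all 2 of 8 rose and 0 fell at 19 hpf, so 25.0% were called against 46.4% of all genes. At 11 hpf 1 of 7 rose and 3 fell, so 57.1% were called against 36.6% of all genes. The list median of 0.68 at 19 hpf turned to -0.37 on ribosomal centring, and that of -0.36 at 11 hpf turned to 0.07 under upper-quartile and 0.61 under total-count scaling.

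Enzymes that build and edit heparan sulfate, the sugar chain on which FGF ligands meet their receptors, rose in most of the identifiers with rows, which covered 8 of 15 symbols. Of 8 identifiers 6 rose and 0 fell at 19 hpf, where 18.7% of all genes rose, and 5 rose and 0 fell at 11 hpf, where 12.0% of all genes rose. The list medians of 1.43 at both times, where that of all genes was 0.07, stayed positive under all 6 scalings. At 19 hpf the authors' deposited table gave 2.42 ± 0.51 for HS6ST3 and 1.90 ± 0.47 for HS2ST1, which add sulfate groups to the chain. HS3ST3A1, another sulfotransferase gene, stood at 1.69 ± 0.33 at 19 hpf and 1.67 ± 0.42 at 11 hpf in the authors' deposited table. GLCE, the epimerase of the chain, stood at 1.45 ± 0.36 and 1.54 ± 0.41 there. At 11 hpf EXT1, a polymerase subunit, rose by 1.33 ± 0.35 and SULF1, which removes sulfate groups outside the cell, by 1.22 ± 0.38, also in the authors' deposited table. On ribosomal centring 1 of 8 remained higher at 19 hpf and 3 of 8 at 11 hpf.

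Adaptors and kinases between the receptor and ERK had rows for 16 of 32 symbols. At 19 hpf 0 of 18 identifiers rose and 7 fell, where 18.7% of all genes rose and 27.7% fell. At 11 hpf 2 of 18 rose and 4 fell, shares near the 12.0% and 24.6% of all genes. Under total-count scaling 5 rose and 4 fell at 19 hpf and 8 rose and 3 fell at 11 hpf. On ribosomal centring 0 rose and 15 fell at 19 hpf and 1 rose and 8 fell at 11 hpf. GRB2 (BL00705), the adaptor that recruits the RAS exchange factor, had a rebuilt mean of 59.4 normalized counts in Activin and 3116 in control explants at 19 hpf, and of 22.2 and 342 at 11 hpf. The other GRB2 identifier, BL08476, had 1216 and 1036 at 19 hpf, and 499 and 800.4 at 11 hpf, called at neither time. PTPN11, a phosphatase that promotes ERK signalling, fell by 2.84 on the log2 scale at 19 hpf and by 3.15 at 11 hpf. At 19 hpf RPS6KA3, a kinase that ERK activates, fell by 2.70 and the scaffold CNKSR2 fell by 1.93. At 11 hpf GAB1, a docking protein, fell by 2.34 and BRAF, a RAF kinase, rose by 2.25.

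**Figure D4:**
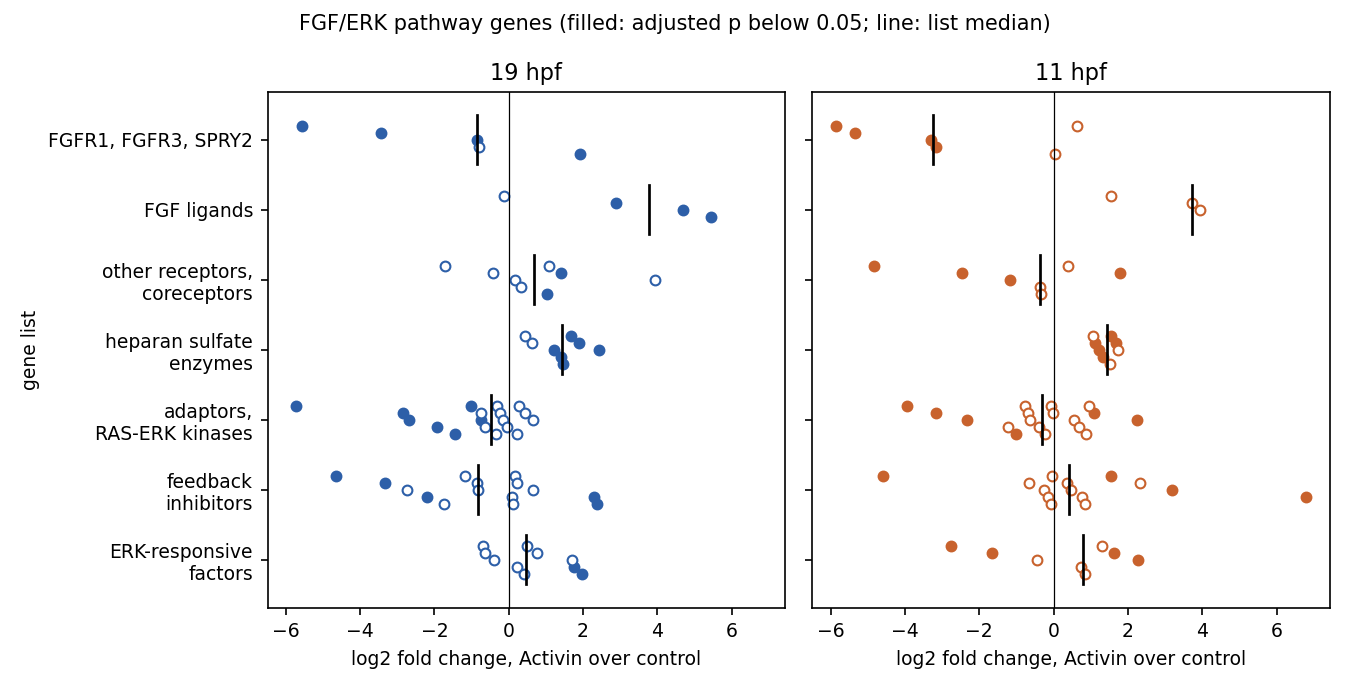
Log2 fold change of Activin over control for every identifier of each list, 19 hpf left and 11 hpf right, filled where called at an adjusted p below 0.05, with the list median as a black line. Heparan sulfate enzymes lie right of 0 at both times, and the adaptor and kinase list reaches furthest left at 19 hpf through GRB2 (BL00705).

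Other feedback inhibitors went both ways, with rows for 10 of 21 symbols at 19 hpf and 9 at 11 hpf. At 19 hpf 2 of 15 rose and 3 fell, with 0 higher and 11 lower on ribosomal centring, so 33.3% were called against 46.4% of all genes. At 11 hpf 3 of 14 rose and 1 fell, so 28.6% were called against 36.6% of all genes. DUSP5, an ERK phosphatase, had 8.94 normalized counts in Activin and 222 in control explants at 19 hpf, and 37.7 and 29.4 at 11 hpf. It fell at 19 hpf, was not called at 11 hpf, and its difference between times was -4.99 (Wald test, Benjamini-Hochberg adjusted p = 1.1e-04 over all genes). IL17RD (BL04539), a membrane inhibitor of FGF signalling, fell by 3.33 at 19 hpf. Its other identifiers, BL08212 at -0.84 and BL07392 at -2.74, were not called there. PEBP1 (BL00749), of a family named for a RAF inhibitor, rose by 2.39 and DUSP1, a MAP kinase phosphatase, by 2.29 at 19 hpf. With an adjusted p below 0.01, 0 identifiers of this list remained higher at 19 hpf. PEBP1 identifiers BL02771, BL21559 and BL22749 stood at -1.73, -1.18 and -0.82 at 19 hpf and were not called. At 11 hpf NF1 (BL20346), which switches RAS off, rose by 3.19 and CBLB, a ubiquitin ligase for receptors, by 1.54. NF1 (BL20174) was called higher there too, with a control mean of 0.25 counts. The 1 called lower was PEBP1 (BL06367), with 0.72 normalized counts in Activin and 17.2 in control explants. The Sprouty-related SPRED1 had 170.2 in Activin and 152 in control explants at 19 hpf, and 315 and 333 at 11 hpf, called at neither time. The list median was -0.82 at 19 hpf, turning to 0.03 under total-count scaling, and 0.42 at 11 hpf.

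Transcription factors that respond to ERK in other animals had rows for 10 of 22 symbols at 19 hpf and 8 at 11 hpf. At 19 hpf 2 of 10 rose, near the 18.7% of all genes, and 0 fell, where 27.7% of all genes fell. At 11 hpf 2 of 8 rose and 2 fell, so 50.0% were called against 36.6% of all genes. At 19 hpf EGR1, an immediate early gene, had 923 normalized counts in Activin and 272 in control explants, and MYC had 944 and 241. At 11 hpf MYC had 1791 and 371, ETS1 had 1728 and 564, and both rose. ERF, an ETS repressor that ERK inactivates, fell by 2.76 at 11 hpf and JUN by 1.66. ETV1, of the ETS group often read as FGF targets, had 3103 in Activin and 2321 in control explants at 19 hpf, and 2787 and 1683 at 11 hpf, called at neither time. The list median was 0.46 at 19 hpf, turning to -0.59 on ribosomal centring, and 0.79 at 11 hpf.

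Over the 6 lists together 15 of 63 identifiers rose and 10 fell at 19 hpf, so 39.7% were called against 46.4% of all genes. At 11 hpf 13 of 58 rose and 10 fell, and 39.7% were called against 36.6% of all genes.

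**Figure D5:**
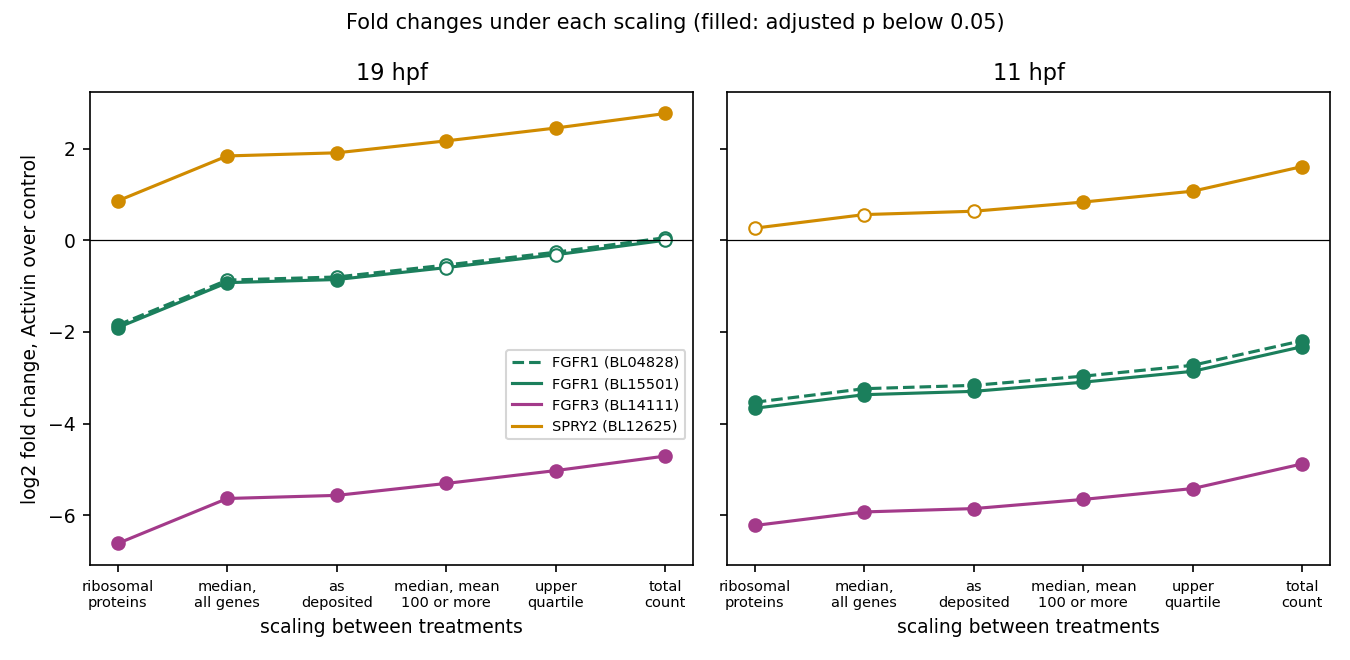
Log2 fold change of Activin over control of the 4 identifiers under 6 scalings between treatments, 19 hpf left and 11 hpf right, with filled points called at an adjusted p below 0.05. FGFR3 stays below -4.5 throughout, and the FGFR1 identifiers at 19 hpf lie between -1.90 and 0.06.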

How the data were processed

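Per the submitters' processing notes, the tools were HISAT2, featureCounts and edgeR. Their versions, the build and the gene annotation are not given in the sources used here. Per the file headers, the mean is a signal averaged by the authors over normalized counts. Fold changes and their errors are on a log2 scale, as deposited. The deposited test statistic is a score equal to the fold change over its error. Raw and adjusted p-values are as deposited, and the adjusted one is a Benjamini-Hochberg adjustment over all rows of its table. The headers name neither numerator nor tool. Their column names look like those that DESeq2 writes rather than edgeR, so which tool gave the fold changes and p-values is not settled.

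The members and lists were chosen with earlier results of these data known. The planned edgeR refit needs counts per library and was not run, and the authors' values were used. Group means assume equal weight for both groups. The times share no library, so their fold changes were compared by a Wald test over 13528 genes (scipy 1.17.1, Python 3.11.15). Its code was run on simulated data with the authors' errors as noise, which cannot show whether those errors are right. Intervals are 95% normal intervals from the authors' errors. Alternatives were 5 scalings, a mean of at least 20, an adjusted p below 0.01 and at least 2-fold. Each scaling subtracted 1 log2 shift from all fold changes of a time, so a negative shift raised them. At 19 hpf the shifts were 0.07 for all genes, -0.26 for genes of mean 100 or more and -0.54 for upper quartiles. They were -0.86 for totals and 1.05 for ribosomal proteins. In the same order they were 0.07, -0.20, -0.44, -0.98 and 0.37 at 11 hpf. Genes were named by rule: all members, all ligands, up to 4 called genes of largest change per list and time with a rebuilt mean of at least 20 in the higher group, and the 3 nearest patterns. Of the other receptor tyrosine kinases the rule gives counts and the median. Genes named beside a called copy were added after their values were seen, as were BL02048, SPRED1, ETV1, PEBP1 (BL06367) and the most abundant marker genes. With 2 libraries of mixed explants a group, p-values refer to the spread between these samples. No sequence or coordinate is printed, since the reference gene table matched 0 of the 7 identifiers.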

Additional observations from a re-analysis of the deposited data

Results flagged for a closer look

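The Activin effect on FGFR1 (BL15501) differed between times by 2.44 ± 0.51 in log2, 19 minus 11 hpf (Wald test, Benjamini-Hochberg adjusted p = 6.1e-05 over all genes). That on FGFR1 (BL04828) differed by 2.36 ± 0.63 (Wald test, adjusted p = 0.0023). Both are given for a closer look because a test of the difference between the times passed. Both identifiers share libraries and a gene name, so they are not independent of each other.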

How the results depend on the processing

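In all 8 alternatives were run. Of 117 single-gene values 93 kept their direction and side of the threshold, 12 lost a call, 7 gained one and 5 changed sign. FGFR3 (BL14111) at both times, both FGFR1 identifiers at 11 hpf, SPRY2 at 19 hpf and the 2 FGFR1 differences between times kept their calls in all 8. Those that changed sign were FGFR1 at 19 hpf under total-count scaling (0.0018 for BL15501 and 0.057 for BL04828), FGFR3 (BL06450) at 11 hpf on the median of all genes and on ribosomal centring (-0.037 and -0.33), and the FGFR3 (BL14111) difference between times on ribosomal centring (-0.39). Of the 5, BL15501 alone was called at the deposited scaling, and none was called after the change. Members called lower at 19 hpf numbered 1 in place of 3 on genes of mean 100 or more, on upper quartiles, on totals and with an adjusted p below 0.01. Members called higher at 11 hpf numbered 1 in place of 0 under the first 3 of these, SPRY2 in each case. List genes called higher at 11 hpf numbered 24 under upper-quartile and 28 under total-count scaling in place of 13, and those called lower 6 under total-count scaling in place of 10. At 19 hpf 26, 33 and 4 were higher under upper-quartile, total-count and ribosomal centring in place of 15, and 32 lower on ribosomal centring in place of 10. The scaling shift itself moves these counts. Of all calls 59.7% were lower at 19 hpf and 67.2% at 11 hpf, against 37.1% and 35.2% under total-count scaling, 44.8% and 51.7% under upper-quartile scaling and 85.2% and 78.7% on ribosomal centring. The SPRY2 difference between times passed on genes of mean 100 or more, under upper-quartile scaling and with a mean of at least 20 (Wald test, adjusted p = 0.042, 0.034 and 0.044), within a range of 0.034 to 0.44 over all 8. No paired analysis was possible because the tables hold no values per library, and for the same reason no count model, no other tool and no left-out replicate was run. Low counts limit the 3 sparse identifiers most.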

Other observations

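Receptor tyrosine kinases outside the FGF family went both ways. At 19 hpf 6 of 24 identifiers rose and 3 fell, with a median of 0.08, so 37.5% were called against 46.4% of all genes. At 11 hpf 2 of 27 rose and 6 fell, with a median of 0.41, so 29.6% were called against 36.6% of all genes. Their summed rebuilt means were 9409 normalized counts in Activin and 6972 in control explants at 19 hpf, and 7842 and 7653 at 11 hpf. FGFR1OP and FGFR1OP2, which share letters with FGFR1 but are named for fusion partners of it, are not receptors. In the authors' deposited table FGFR1OP stood at 0.57 ± 0.58 at 19 hpf and at -1.23 ± 0.35 at 11 hpf, and FGFR1OP2 at -1.03 ± 0.40 and 0.75 ± 0.48.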
